A study of Mus musculus with 8 samples.

Results

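Vmn1r18, Vmn1r19, Vmn1r20 and Vmn1r32 are 4 genes of the vomeronasal type 1 receptor (V1R) family whose transcripts were detected in mouse kidney nuclei. They were taken by gene symbol and are 4 of the 32285 genes of the count tables. They were picked with measured values of these same libraries in view, so their differences between genotypes are given below as a description, without a test.

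The study asked how the kidney transcriptome depends on the time of day and on the circadian clock of the renal tubule. Kidney nuclei of 8 male C57BL/6J mice were profiled by single-nucleus RNA-seq, with 2 libraries for each combination of genotype and time. Ctrl mice carried Bmal1lox/lox only. Their cKOt littermates carried Bmal1lox/lox with the Pax8-rtTA and LC-1 transgenes, in which the Pax8 promoter directs a doxycycline-dependent activator to the renal tubule and LC-1 supplies Cre. Both genotypes were 8 weeks old when they received doxycycline at 2 mg/ml in drinking water for 2 weeks. All mice lived under 12 h of light and 12 h of darkness and were killed at ZT4, in the light phase, or at ZT16, in the dark phase. Ctrl and cKOt mice thus differed both in the loss of Bmal1 and in carrying the transgenes, and these cannot be told apart.

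V1Rs are G protein-coupled receptors of sensory neurons in the vomeronasal organ, where they detect pheromones and other chemical cues. They occur in the apical layer of that organ together with the G protein subunit encoded by Gnai2, whereas the V2R family occurs in the basal layer with Gnao1. Signalling there runs through a phospholipase C and the cation channel Trpc2. V1R genes lie in tandem clusters of close relatives, each with a coding sequence in a single exon. The proximal straight tubule (PST), which matters below, is the terminal part of the proximal tubule and handles organic ions, amino acids and fatty acids.

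All 4 genes lie on chromosome 6. Vmn1r18 (ENSMUSG00000091382), Vmn1r19 (ENSMUSG00000115799) and Vmn1r20 (ENSMUSG00000115253) are consecutive, with gaps of 8.00 kb and 22.9 kb between them in the GENCODE annotation on GRCm39, whose gene models are longer than the RefSeq records, and Vmn1r32 (ENSMUSG00000062905) lies 9.12 Mb further on. In RefSeq on GRCm38.p6, Vmn1r18 occupies chr6:57389668-57390567 on the minus strand, Vmn1r19 chr6:57404464-57405390 on the plus strand, Vmn1r20 chr6:57431691-57432602 on the plus strand and Vmn1r32 chr6:66552183-66559708 on the minus strand. In the GENCODE annotation, Vmn1r18, Vmn1r19 and Vmn1r20 all lie inside the span of 1 long noncoding RNA gene, 4930533I22Rik, which runs over 199 kb on the plus strand. Vmn1r19 and Vmn1r20 share its strand and Vmn1r18 is on the other. No source used here states how intronic or antisense reads were treated in counting, so reads of the lncRNA and of the receptor genes inside it may not be fully separated.

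The first coding bases of the 3 neighbouring genes show how alike they are. The 50 bases below are exonic and start at the ATG. Capitals mark the 9 positions at which the 3 sequences are not all the same.
Vmn1r18, chr6:57390518-57390567, minus strand: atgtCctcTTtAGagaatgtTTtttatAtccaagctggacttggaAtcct
Vmn1r19, chr6:57404464-57404513, plus strand: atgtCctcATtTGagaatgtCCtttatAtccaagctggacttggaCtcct
Vmn1r20, chr6:57431691-57431740, plus strand: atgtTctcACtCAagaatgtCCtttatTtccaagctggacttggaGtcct

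Over whole coding sequences, identity between pairs of the 4 genes ranged from 80.1% for Vmn1r18 and Vmn1r20 to 87.5% for Vmn1r18 and Vmn1r19. The longest run of bases shared by Vmn1r18 and Vmn1r19 was 58. The sequenced cDNA reads were 90 bases long, and stretches of that length shared with another vomeronasal receptor gene made up 0.0140% of those in annotated Vmn1r18 transcripts, 0% in Vmn1r19, 5.39% in Vmn1r20 (all with Vmn1r27) and 1.24% in Vmn1r32. None was shared with the annotated exons of 4930533I22Rik. Some reads of Vmn1r20 and Vmn1r32 may therefore fit a near-identical copy. These shares count stretches over whole transcripts, and the share of reads affected was not measured.

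The 250 bases before the annotated start of Vmn1r32 are given because all but 2 of its 1578 UMIs came from cKOt libraries. They are written on the coding strand, all in lower case, with no motif marked.
Vmn1r32 upstream, chr6:66559709-66559958, minus strand: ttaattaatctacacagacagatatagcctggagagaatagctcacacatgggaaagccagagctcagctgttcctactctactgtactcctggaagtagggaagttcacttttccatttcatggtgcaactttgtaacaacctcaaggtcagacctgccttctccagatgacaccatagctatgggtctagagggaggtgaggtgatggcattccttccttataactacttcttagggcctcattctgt

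The E-box CACGTG, which reads the same on both strands, was not found from 250 bases before to 50 after this start. It was present in 7.15% of the 32851 windows of that length around the starts of RefSeq records. The RefSeq records of the other 3 genes begin at the ATG, so their windows are not read as promoters.

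Levels are in CPM, the UMIs of a gene scaled to a common total of mRNA UMIs of a library, class or cluster, with TMM factors where all nuclei of a library are summed. They are not corrected for transcript length and are compared only within a gene.

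Each library held between 36548873 and 54500820 UMIs in 81391 nuclei kept of 82784 barcodes. Replicate libraries differed by far more than counting error alone (a chi-square of 31.1 to 55.8 for each degree of freedom), and pairs of libraries shared 18 to 42 barcodes, as 823 barcodes occurred in more than 1 library. Where nothing says that replicates were processed apart, the tests measure only the spread between these mice and libraries. Arntl, the targeted gene (also called Bmal1), was at 38.3 and 33.1 CPM in Ctrl ZT4, at 154 and 159 in Ctrl ZT16, at 296 and 201 in cKOt ZT4 and at 296 and 266 in cKOt ZT16. Its total UMIs were thus higher in cKOt, and a gene-level count by 3′ tags does not check the deletion.

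Vmn1r18, Vmn1r19 and Vmn1r20 were all lower in cKOt than in Ctrl kidneys at both times and lower at ZT16 than at ZT4 in both genotypes, whereas Vmn1r32 was at or near 0 in Ctrl and present in every cKOt library. Over all nuclei, Vmn1r18 was at 198 and 232 CPM in Ctrl ZT4, 97.3 and 88.6 in Ctrl ZT16, 87.7 and 69.0 in cKOt ZT4, and 61.2 and 49.7 in cKOt ZT16. Both Ctrl ZT4 libraries stood far above the other 6, and none of the 4 groups overlapped another. Vmn1r19 was at 17.1 and 25.7 CPM in Ctrl ZT4, 8.32 and 15.8 in Ctrl ZT16, 9.40 and 9.42 in cKOt ZT4, and 5.16 and 5.81 in cKOt ZT16. Its Ctrl ZT16 libraries were far apart and enclosed those of cKOt ZT4. Vmn1r20 was at 51.2 and 65.0 CPM in Ctrl ZT4, 22.6 and 33.2 in Ctrl ZT16, 29.4 and 24.8 in cKOt ZT4, and 14.5 and 14.7 in cKOt ZT16. The cKOt ZT16 libraries were the lowest for all 3 genes.

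**Figure D1:**
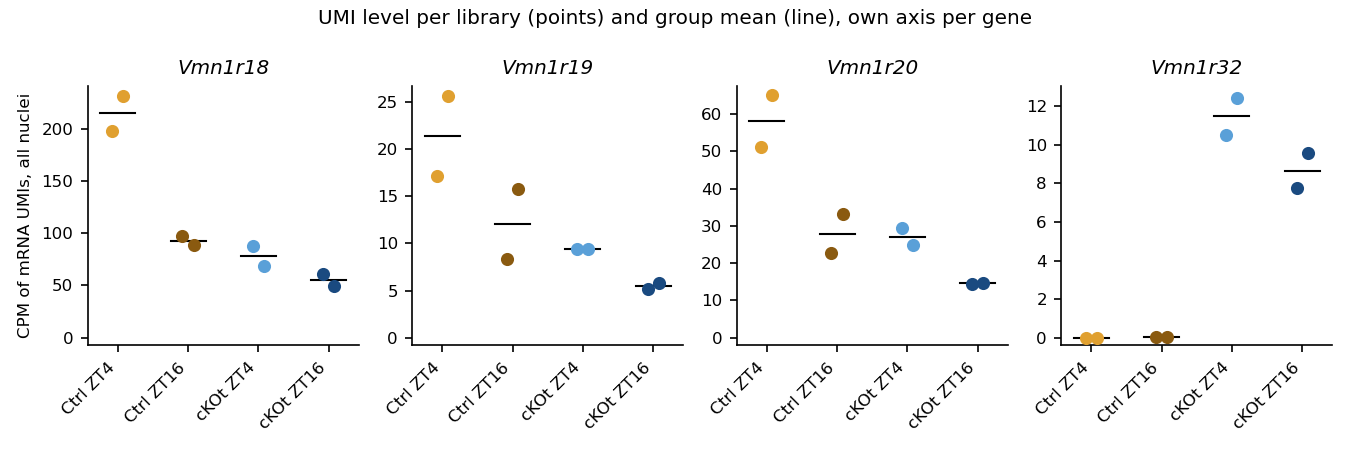
CPM of each gene in each of the 8 libraries (points) with the mean of the 2 libraries of a group (line), on a separate linear axis per gene. The Ctrl ZT4 libraries are the highest for Vmn1r18, Vmn1r19 and Vmn1r20, and Vmn1r32 is seen in the 4 cKOt libraries only, between 7.74 and 12.4 CPM, apart from 1 UMI in each Ctrl ZT16 library.

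At ZT4, group means in CPM were 215 ± 24.2 (SD, n = 2) in Ctrl and 78.4 ± 13.2 in cKOt for Vmn1r18, a 2.74-fold lower level in cKOt. For Vmn1r19 they were 21.4 ± 6.04 and 9.41 ± 0.013, a ratio of 2.27, and for Vmn1r20 they were 58.1 ± 9.77 and 27.1 ± 3.22, a ratio of 2.14. The fitted log2 differences (cKOt minus Ctrl, edgeR) were -1.45 (SE 0.16), -1.19 (SE 0.30) and -1.10 (SE 0.20). In each of the 3 genes both cKOt libraries lay below both Ctrl libraries, as they did in 19.3% of the 16145 mRNAs tested. By the adjusted p, 0.446% of these mRNAs were called at ZT4.

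At ZT16, Ctrl and cKOt means were 93.0 ± 6.13 and 55.4 ± 8.13 CPM for Vmn1r18 (ratio 1.68), 12.0 ± 5.26 and 5.49 ± 0.46 for Vmn1r19 (ratio 2.19), and 27.9 ± 7.49 and 14.6 ± 0.11 for Vmn1r20 (ratio 1.91). The log2 differences were -0.75 (SE 0.16), -1.13 (SE 0.30) and -0.93 (SE 0.20). The groups did not overlap in any of the 3 genes, as in 17.7% of the 16094 mRNAs tested, and 0.174% of mRNAs were called at ZT16. For Vmn1r19 and Vmn1r20 the ZT16 difference rested in good part on the second Ctrl ZT16 library, without which the log2 differences were -0.60 and -0.63.

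The genotype difference of Vmn1r18 was smaller at ZT16 than at ZT4 by 0.71 on the log2 scale (SE 0.23). This is a description, since both genotype differences that chose the genes enter it, and over all genes 0.0183% of the 16351 mRNAs were called in that comparison.

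Between time points in Ctrl kidneys, the 3 clustered genes were lower at ZT16. The Ctrl ZT4 libraries enter both this comparison and that of genotypes at ZT4, so a gene picked for a high level there is more likely to be lower at ZT16, and the values are a description, with no test. The ZT16 minus ZT4 log2 differences were -1.21 (SE 0.16) for Vmn1r18, a 2.31-fold lower mean, -0.84 (SE 0.29) for Vmn1r19 and -1.06 (SE 0.20) for Vmn1r20. The Vmn1r19 difference was -0.51 without the second Ctrl ZT4 library, and -0.43 and -1.37 without the first and second Ctrl ZT16 library. Both ZT16 libraries lay below both ZT4 libraries in all 3 genes, as in 22.2% of mRNAs. Of the 16165 mRNAs in this comparison, DESeq2 called 234, Vmn1r18 and Vmn1r20 among them, from which nothing is read. By edgeR 0.142% were called, Vmn1r18 among them. That call was lost with the replicate number as a block, without any 1 of the 4 Ctrl libraries and without either cKOt ZT16 library, and nothing is read from it.

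In cKOt kidneys, whose libraries also entered the choice of the genes, the ZT16 minus ZT4 log2 differences were -0.50 (SE 0.16) for Vmn1r18, -0.78 (SE 0.30) for Vmn1r19, -0.89 (SE 0.20) for Vmn1r20 and -0.41 (SE 0.20) for Vmn1r32. None was called by edgeR, where 0% of the 16069 mRNAs were called and 1337 had an unadjusted p under 0.05. DESeq2 called 168 of these mRNAs, Vmn1r20 among them. The values are a description, and nothing is read from the result of either tool. Both ZT16 libraries lay below both ZT4 libraries in all 4 genes, as in 18% of mRNAs.

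Vmn1r32 had 0 UMIs in both Ctrl ZT4 libraries and 1 UMI in each Ctrl ZT16 library. In cKOt it was at 10.5 and 12.4 CPM at ZT4 (884 UMIs over both libraries) and at 7.74 and 9.56 CPM at ZT16 (692 UMIs). Set against a floor of 3 UMIs over the Ctrl ZT4 group, which is 0.0414 CPM, the level in cKOt was at least 279-fold higher at ZT4. At ZT16 the ratio was 360, with a 95% exact counting interval of 99.3 to 2979 that covers counting error only. Among all 32285 genes, Vmn1r32 was the only one with at most 2 UMIs over the 4 Ctrl libraries and at least 200 in each cKOt library, a minimum that 11666 genes passed. No gene showed the reverse. These limits were set after the values of Vmn1r32 had been seen.

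The 3 clustered genes and Vmn1r32 were distributed differently over the classes of nuclei. Nuclei were clustered without any vomeronasal receptor gene, and clusters were assigned to 20 classes by marker genes. PST nuclei, 12224 of the 81391, held 96.1% of all Vmn1r18 UMIs, 93.6% of Vmn1r19 UMIs and 93.0% of Vmn1r20 UMIs. All 6 PST markers were detected in PST nuclei of every library, among them Slc7a13 and Slc27a2, and their summed level was 8245 to 9909 CPM in Ctrl and 9402 to 10899 in cKOt. The PST class made up 11.7% to 16.97% of nuclei in a library.

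In PST nuclei alone, Vmn1r18 was at 711 and 779 CPM in Ctrl ZT4, 348 and 300 in Ctrl ZT16, 333 and 232 in cKOt ZT4, and 229 and 222 in cKOt ZT16. The order of the groups was that seen over all nuclei, though 1 cKOt ZT4 library lay within the range of Ctrl ZT16. That fewer nuclei express a gene and that each holds less of its RNA cannot be told apart from such sums. Vmn1r19 was at 61.3 and 81.6 CPM in Ctrl ZT4, 29.3 and 53.3 in Ctrl ZT16, 35.4 and 30.4 in cKOt ZT4, and 18.6 and 25.4 in cKOt ZT16. Vmn1r20 was at 180 and 211 CPM in Ctrl ZT4, 78.8 and 110 in Ctrl ZT16, 110 and 79.8 in cKOt ZT4, and 51.0 and 62.5 in cKOt ZT16. For both genes the Ctrl ZT4 libraries were the highest, the cKOt ZT16 libraries the lowest, and the 2 remaining groups overlapped.

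A Vmn1r18 UMI was found in 85% and 91.1% of PST nuclei in Ctrl ZT4, in 71.7% and 62.9% in Ctrl ZT16, in 63.2% and 52.8% in cKOt ZT4, and in 56.1% and 49.8% in cKOt ZT16. With each nucleus thinned to 1000 UMIs, which left out at most 1 PST nucleus per library, the shares were 39.3% to 44.0%, 20.6% to 22.8%, 16.5% to 22.8% and 14.7% to 16.1% in the same order. The thinned shares kept Ctrl ZT4 apart from the other groups, which came close to each other. In vascular nuclei, which are not part of the tubule, the unthinned share was 0.117% to 2.16% over the 8 libraries, at median depths of 1702.5 to 2576.5 UMIs against 5616 to 9395.5 in PST nuclei.

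Of the 19 classes other than PST, none exceeded 22.4 CPM of Vmn1r18 in any Ctrl library, the value of the proximal convoluted tubule (PCT) in 1 Ctrl ZT4 library. PCT came next after PST in Ctrl. In Ctrl ZT4 it was at 17.5 and 22.4 CPM, above the vascular (8.95 and 10.9), the mesangial and pericyte (8.80 and 10.3) and the thin ascending limb nuclei (5.13 and 12.5). In Ctrl ZT16 it was at 2.53 to 4.18 CPM and overlapped all 3. Thinned to 1000 UMIs, at most 1.34% of PCT nuclei had a Vmn1r18 UMI, against at most 1.10% of vascular and 1.21% of mesangial and pericyte nuclei. By these thinned shares PCT came close to classes outside the tubule, and its level is not read as expression. The highest level outside PST was 5.14 CPM for Vmn1r19, in PCT, and 18.3 CPM for Vmn1r20, in type A intercalated nuclei (aIC), both in Ctrl ZT4 libraries. The aIC nuclei of both Ctrl ZT4 libraries held only 11 Vmn1r20 UMIs together, and the other library was at 8.95 CPM.

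**Figure D2:**
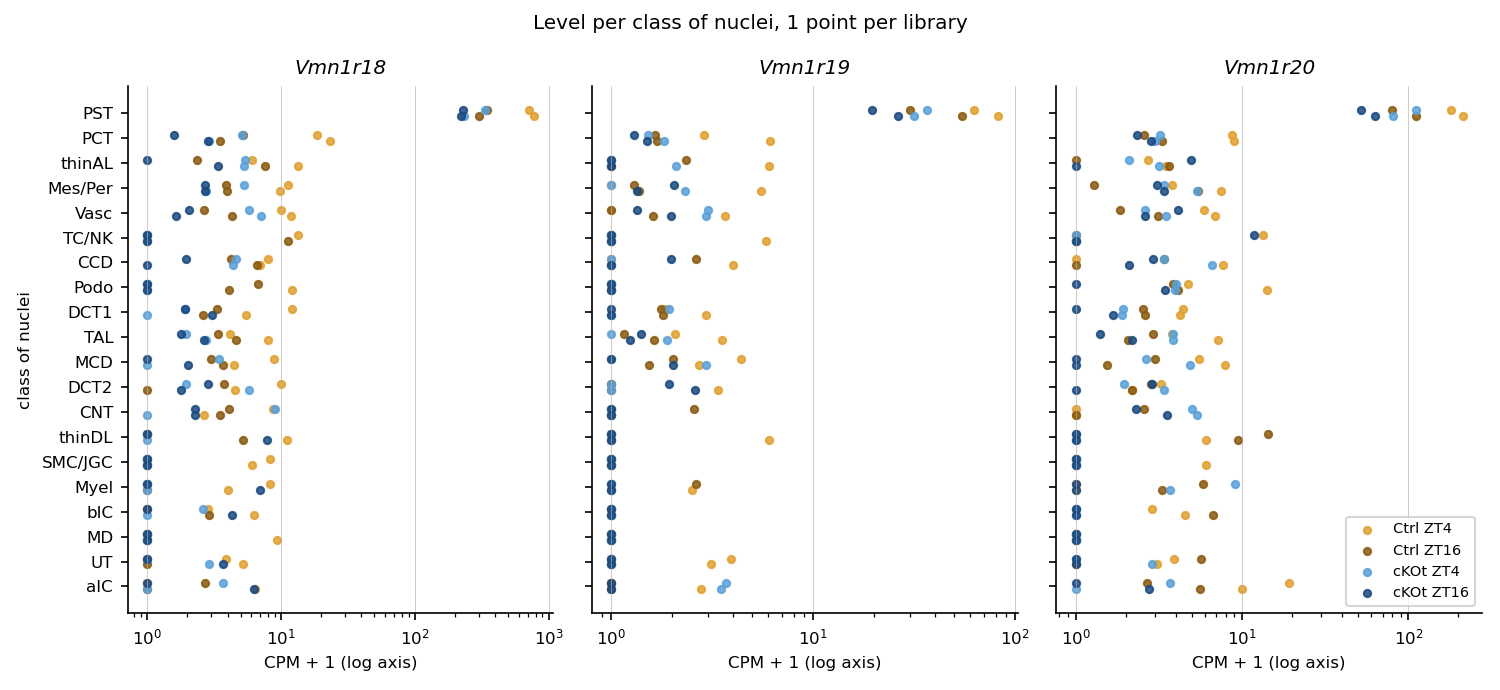
CPM + 1 on a log axis of Vmn1r18, Vmn1r19 and Vmn1r20 in the 20 classes of nuclei, with 1 point per library and classes ordered by the mean Ctrl level of Vmn1r18. The PST points, at 222 to 779 CPM for Vmn1r18, lie well to the right of all other classes in all 8 libraries.

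The time difference was also fitted on UMI sums per class and library, again as a description. In PST the ZT16 minus ZT4 log2 differences in Ctrl were -1.22 (SE 0.20) for Vmn1r18, -0.80 (SE 0.32) for Vmn1r19 and -1.05 (SE 0.25) for Vmn1r20. The filter on low counts left 15 pairs of a gene and a class in Ctrl, and several passed it only through ZT4, so no count of directions is given. In edgeR 2 pairs were called, Vmn1r18 and Vmn1r20 in PCT, where 0.713% of mRNAs were called, against 0.356% of all pairs of a class and an mRNA. Neither was called with the replicate number as a block or with clusters from 50 principal components. Both concern the low levels just described, and vascular nuclei had a like order, at 8.95 and 10.9 CPM of Vmn1r18 in Ctrl ZT4 and 1.68 and 3.33 in Ctrl ZT16. In cKOt, none of 23 pairs was called by edgeR or DESeq2, which called 0.153% and 0.237% of all pairs of a class and an mRNA. In edgeR an unadjusted p under 0.05 was found for 3 of the 23 in cKOt, against 7.16% of all pairs, and for 12 of the 15 in Ctrl, against 8.23%, and nothing is read from these counts.

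PST nuclei fell into 7 clusters, most of which were held by few libraries. Cluster 16 held 911 and 981 nuclei of the 2 Ctrl ZT4 libraries and almost none of the others. Cluster 25 held 1115 nuclei of the first Ctrl ZT16 library, cluster 24 held 1105 of the second, and cluster 27 held 1133 of the second cKOt ZT4 library. Clusters 8 and 12 were mostly cKOt, and cluster 19, led by Adgrb3, Higd1c and Gfra1, was mostly Ctrl with 346 to 502 nuclei in each Ctrl library. The level of a class in a group thus came from different clusters, and the difference between groups cannot be told apart from that division where a cluster holds 1 group only.

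Clusters that several groups shared allowed them to be set side by side. In cluster 19, Vmn1r18 was at 907 and 938 CPM in Ctrl ZT4, 624 and 512 in Ctrl ZT16 and 376 in the only cKOt library with at least 20 nuclei there. In cluster 12, it was at 694 and 466 CPM in Ctrl ZT4, 314 in 1 Ctrl ZT16 library, 422 and 358 in cKOt ZT4, and 364 and 356 in cKOt ZT16. There the single Ctrl ZT16 value lay below those of cKOt. In cluster 25, it was at 814 and 898 CPM in Ctrl ZT4 and 222 and 275 in Ctrl ZT16. The value of 275 rested on few nuclei, close to the minimum of 20, as most PST nuclei of that library were in cluster 24. In cluster 8, cKOt ZT4 was at 277 and 239 CPM and cKOt ZT16 at 118 and 137. Leaving out clusters 16, 24, 25 and 27, a choice made after seeing the data, gave Vmn1r18 levels of 861 and 892 CPM in Ctrl ZT4, 606 and 479 in Ctrl ZT16, 335 and 354 in cKOt ZT4, and 228 and 223 in cKOt ZT16, so that for Vmn1r18 the 4 groups no longer overlapped. For Vmn1r19 it brought an overlap between times in Ctrl, at 70.7 and 92.7 CPM in ZT4 and 47.9 and 79.4 in ZT16, where all PST nuclei gave 61.3 and 81.6 against 29.3 and 53.3. Of the 12 group means of the 3 genes, 7 moved by more than the SD between the 2 libraries.

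**Figure D3:**
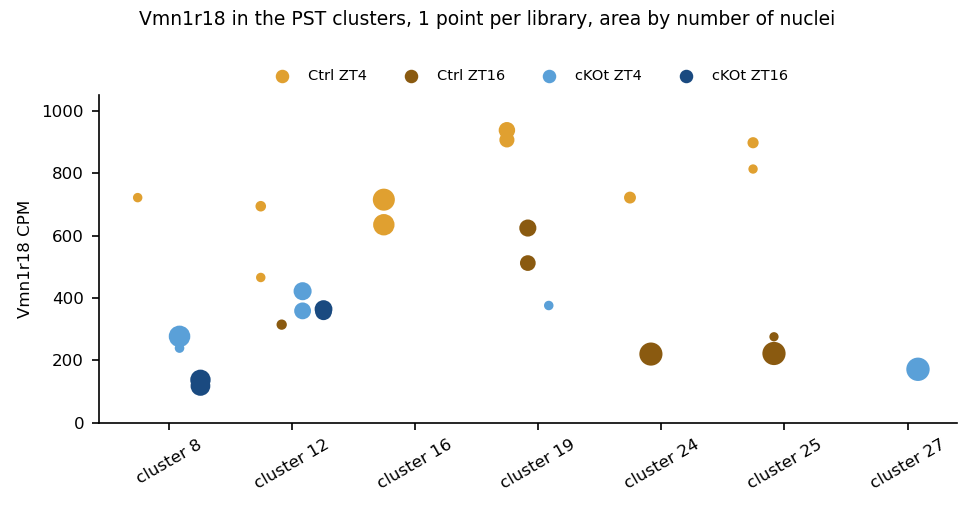
CPM of Vmn1r18 in each of the 7 PST clusters, with 1 point for each library that has at least 20 nuclei in the cluster and point area by number of nuclei. Ctrl ZT4 points lie highest in each cluster they share with other groups, and cluster 16 holds Ctrl ZT4 points alone.

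Within PST nuclei, the 3 clustered genes were often found in the same nucleus. Depending on the library, 83.7% to 97.3% of nuclei with a Vmn1r20 UMI also had a Vmn1r18 UMI, against 37.8% to 79.2% of nuclei without one. Nuclei with a Vmn1r20 UMI were also deeper, at a median of 6668 to 11787 UMIs against 4912 to 8728, and the part of depth in the shared detection was not tested. For Vmn1r19 the share of nuclei with a UMI was 25.045% to 46.5% among those with Vmn1r20 and 7.30% to 23.99% among those without.

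Vmn1r32 had a different distribution, spread along the renal tubule. Of its UMIs, 20.9% were in PCT, 16.7% in PST, 16.0% in the thick ascending limb (TAL) and 13.0% in nuclei without a class name. In the 13 tubule classes together, 8.53 to 14.6 CPM was found in the 4 cKOt libraries, with a UMI in 4.19% to 6.56% of nuclei, and 0 UMIs in Ctrl, where 0 of 25276 nuclei allows a share of up to 0.0119% of nuclei with a UMI, which covers counting error only and is no limit on nuclei that express the gene. In the 7 other classes (vascular, mesangial and pericyte, smooth muscle and juxtaglomerular, podocyte, myeloid, lymphoid and urothelial), the cKOt level was 2.34 to 3.10 CPM, with a UMI in 0.417% to 0.733% of nuclei. Both UMIs found in Ctrl were in vascular nuclei. In every cKOt library, the 13 tubule classes together thus lay above the 7 other classes together in CPM, a scale that takes depth into account. Single classes did not all keep this order. In the first cKOt ZT16 library, for example, the medullary collecting duct was at 2.59 CPM and vascular nuclei at 3.13.

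Among cKOt classes, mean Vmn1r32 levels were highest in the thin descending limb (thinDL, 26.0 ± 20.4 CPM, SD, n = 4 libraries), the connecting tubule (CNT, 25.3 ± 8.57), the late distal convoluted tubule (DCT2, 21.4 ± 13.8), the type B (bIC, 19.0 ± 4.49) and type A intercalated cells (18.2 ± 7.61) and the cortical collecting duct (CCD, 17.4 ± 9.24). The thinDL value rested on 22 UMIs, and 1 library had none there. They were followed by the early distal convoluted tubule (DCT1, 16.96 ± 4.11), TAL (15.2 ± 3.73), PCT (11.9 ± 2.94), the thin ascending limb (thinAL, 8.75 ± 3.99), PST (6.63 ± 2.28) and the medullary collecting duct (MCD, 6.44 ± 4.13). The means pool both times, and neighbours in this order overlapped in their library ranges. The separation of bIC from CNT was not the same at both times. At ZT4 bIC was at 16.0 and 16.4 CPM, below CNT at 28.1 and 34.8. At ZT16 bIC was at 25.6 and 18.2 CPM and CNT at 14.3 and 24.1, so that they overlapped. These values rested on few UMIs, 9 to 18 per cKOt library in bIC and 11 to 24 in CNT. The lowest libraries of CNT, DCT2 and bIC were at 14.3, 13.97 and 15.98 CPM. Those of DCT1, CCD, aIC and TAL were at 12.3, 11.6, 10.5 and 10.5 CPM. None of these classes overlapped PST, whose highest library was at 9.05. Nor did they overlap the vascular (at most 3.35) or the mesangial and pericyte nuclei (at most 3.37). No Vmn1r32 UMI was found in macula densa (MD) nuclei of cKOt, of which there were only 87, and a count of 0 allows up to 3.45% of nuclei with a UMI.

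Vmn1r32 was lower in PST, where the other 3 genes were concentrated, than in PCT in 4 of 4 cKOt libraries. PST was at 5.78 and 9.05 CPM at ZT4 and 3.87 and 7.80 at ZT16, and PCT at 10.9 and 16.0 at ZT4 and 9.001 and 11.7 at ZT16. CNT was above PCT in 4 of 4, at 28.1 and 34.8 CPM at ZT4 and 14.3 and 24.1 at ZT16. The second cKOt ZT4 library was the higher of its pair in all 3 classes. Arntl UMIs in these libraries were also high in both proximal classes. In PCT, Arntl was at 10.5 ± 0.77 CPM in Ctrl ZT4 (SD, n = 2), 236 ± 6.69 in Ctrl ZT16, 259 ± 63.8 in cKOt ZT4 and 314 ± 30.5 in cKOt ZT16. In PST the same groups were at 18.7 ± 3.47, 158 ± 3.92, 276 ± 91.0 and 301 ± 25.9 CPM.

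**Figure D4:**
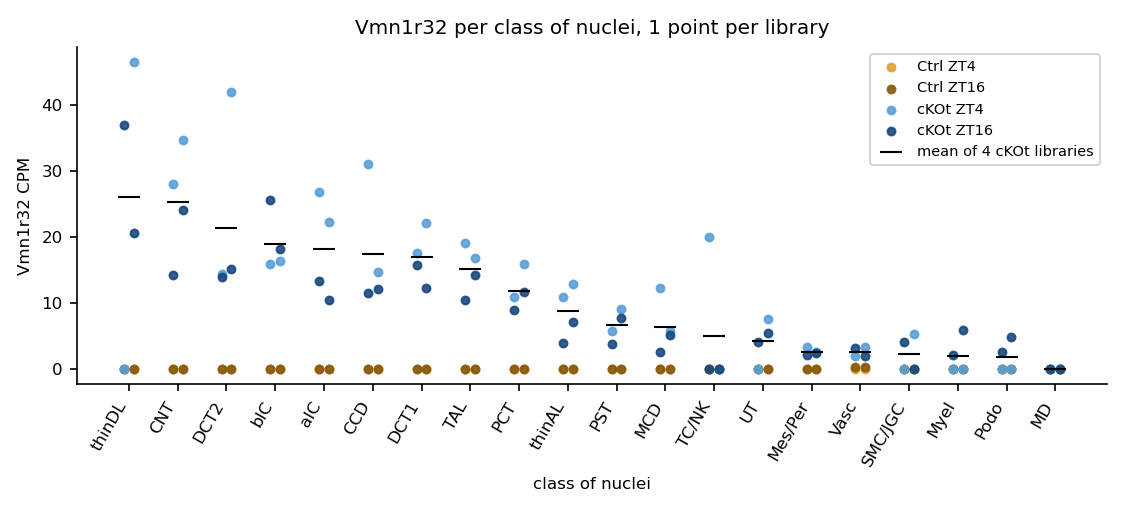
CPM of Vmn1r32 in the 20 classes of nuclei, with 1 point per library and a line at the mean of the 4 cKOt libraries, ordered by that mean. Tubule classes from thinDL to MCD have mean levels of 6.44 to 26.0 CPM, vascular and mesangial classes are at about 2.6, and all Ctrl points are at or near 0.

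To see whether differences extended to the surroundings of these genes, the 10 nearest annotated genes on each side of each were followed. These were 40 different genes, 32 of which had a UMI. They were chosen by position, but around members that were picked with values of these libraries in view. At ZT4, 18 were tested, 2 were called lower in cKOt and none higher by edgeR, where 0.446% of mRNAs and 0.769% of lncRNAs were called, with a median log2 difference of 0.029 against 0.003 over all mRNAs. DESeq2 called 3 of the 18, where it called 2.13% of mRNAs and 1.05% of lncRNAs, and 4 had an unadjusted p under 0.05 in edgeR, as had 8.87% of mRNAs and 7.86% of lncRNAs. With the replicate number as a block neither of the edgeR calls was made, at adjusted p of 0.0504 for 4930533I22Rik and 0.0519 for Ppm1k in edgeR. The 2 called genes lie beside or over Vmn1r18, Vmn1r19 and Vmn1r20.

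The first was 4930533I22Rik, the lncRNA gene that spans the 3 receptor genes. It was at 172 and 191 CPM in Ctrl ZT4, 77.3 and 78.3 in Ctrl ZT16, 83.9 and 67.8 in cKOt ZT4 and 52.8 and 38.0 in cKOt ZT16. Fitted among lncRNAs, it fell by 1.08 in cKOt at ZT4 on the log2 scale (SE 0.23, adjusted p of 0.0423 in edgeR, with 0.769% of lncRNAs called). It spans genes picked with values of these libraries in view, and its reads may not be separate from theirs. Nothing is therefore read from this call. This call was lost without the first or second Ctrl ZT4 library (adjusted p of 0.128 and 0.276) and without the second cKOt ZT4 library (0.215). At ZT16 it differed by -0.77 (adjusted p of 0.319, with 0.389% of lncRNAs called). Between times in Ctrl it fell by 1.09 (adjusted p of 0.0486, with 0.574% of lncRNAs called). The Ctrl ZT4 libraries enter this comparison as they do for the receptor genes inside it, and nothing is read from that call. Like the receptors inside it, it was a PST transcript, with 94.9% of its UMIs in that class, at 625 ± 11.5 CPM in Ctrl ZT4 (SD, n = 2), 268 ± 7.01 in Ctrl ZT16, 270 ± 66.1 in cKOt ZT4 and 181 ± 17.6 in cKOt ZT16. Ctrl ZT4 was the highest group and cKOt ZT16 the lowest, as for Vmn1r18, and how far reads of the 2 genes were separated was not tested beyond the absence of shared exonic stretches.

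The second called gene was Ppm1k, a mitochondrial phosphatase of branched-chain amino acid breakdown, 111 kb from Vmn1r18. It averaged 75.9 CPM in Ctrl ZT4 and 46.0 in cKOt ZT4 and fell by 0.72 (SE 0.11, adjusted p of 0.0375 in edgeR). The call was lost without any 1 of the 8 libraries, at adjusted p of 0.0598 without the first Ctrl ZT16 library to 0.3003 without the second Ctrl ZT4 library, while the log2 difference stayed between -0.78 and -0.65. At ZT16 it was at 56.2 and 53.3 CPM, a difference of -0.08. Vmn1r17, the nearest gene on the other side, had 2 UMIs in all. Of the 19 neighbours tested at ZT16, none was called by edgeR or DESeq2, and 2 had an unadjusted p under 0.05 in edgeR. In that comparison edgeR called 0.174% of mRNAs and 0.389% of lncRNAs, DESeq2 called 1.06% and 0.562%, and 6.1% and 7.06% had an unadjusted p under 0.05, so these counts are near the background.

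Around Vmn1r32, no gene was called by edgeR at either time. Mad2l1, a spindle checkpoint gene only 4.96 kb away, averaged 1.33 CPM in Ctrl ZT4 and 1.41 in cKOt ZT4 (log2 difference 0.08, SE 0.27, adjusted p of 0.970 in edgeR), and Vmn1r33 on the other side had 0 UMIs. The 7 receptor genes Vmn1r33 to Vmn1r39, which follow Vmn1r32 on the chromosome, had at most 14 UMIs each in all 8 libraries.

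**Figure D5:**
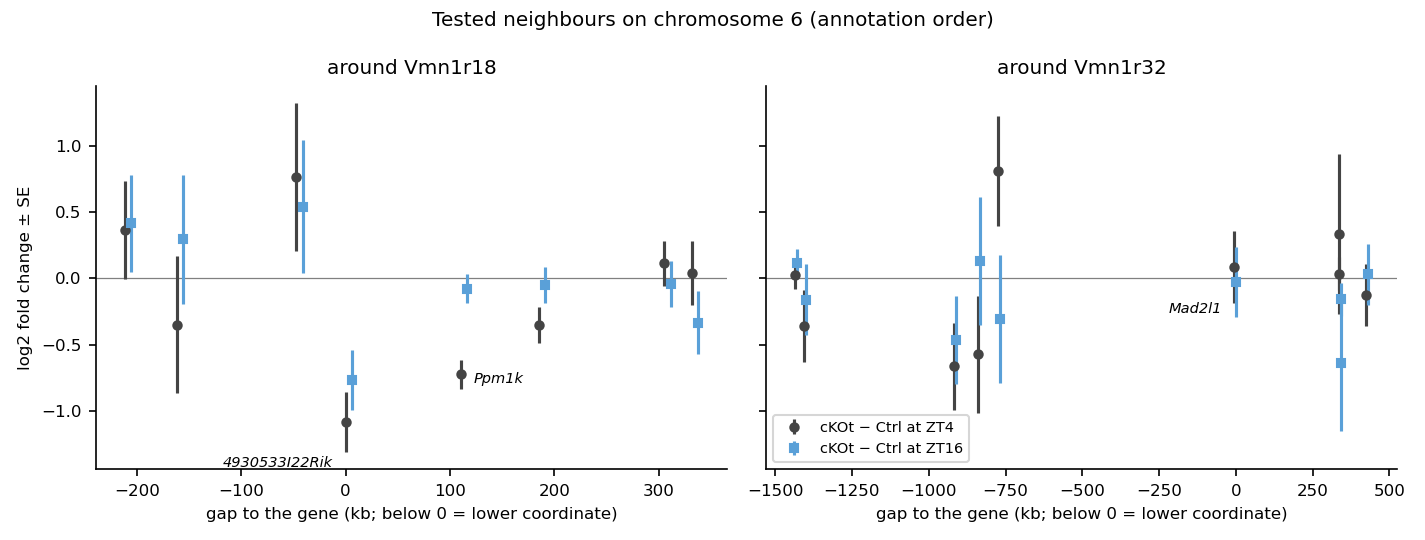
Log2 difference between cKOt and Ctrl, with its SE, of the tested genes among the 10 nearest on each side of Vmn1r18 (left) and Vmn1r32 (right), by gap in kb, at ZT4 and ZT16, with 1 tested gene not drawn. The lncRNA that overlaps Vmn1r18 and the gene Ppm1k lie at -1.08 and -0.72 at ZT4, and Mad2l1, beside Vmn1r32, lies at 0.08.

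The wider family ranged from genes without a UMI to Vmn2r29, which had 3386, more than the 1578 of Vmn1r32. Of 322 other Vmn1r and Vmn2r genes, 221 had at least 1 UMI and 50 could be tested between genotypes at ZT4. In edgeR 1 was called, lower in cKOt, in a comparison that called 0.446% of mRNAs. An unadjusted p under 0.05 was found for 5 of the 50, close to the 8.87% of all mRNAs. DESeq2 called 3, Vmn1r184, Vmn2r4 and Vmn2r77, where it called 2.13% of mRNAs, and the median log2 difference in edgeR was -0.08 against 0.003 over all mRNAs. Vmn1r184 was that gene, with 160 and 180 UMIs in the Ctrl ZT4 libraries, 187 and 90 in Ctrl ZT16, 31 and 19 in cKOt ZT4 and 95 and 49 in cKOt ZT16. It fell by 2.83 at ZT4 (SE 0.42, adjusted p of 0.0341) and differed by -0.87 at ZT16 (adjusted p of 0.812). The ZT4 call was lost without any 1 of the 4 ZT4 libraries, at adjusted p of 0.0601 without the first cKOt library to 0.126 without the second Ctrl library. At ZT16, 54 were tested and none was called in edgeR, which called 0.174% of mRNAs, with 4 at an unadjusted p under 0.05, as had 6.1% of mRNAs. DESeq2 called Vmn2r4 there, and 1.06% of mRNAs. The other 4 of the 5 family genes with the most UMIs were Vmn2r29 (3386 UMIs), Vmn2r57 (1340), Vmn1r4 (1214) and Vmn2r1 (558), and their log2 differences at ZT4 ranged from -0.40 to 0.26, none of them called.

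DESeq2 and a fit without a filter on low counts called Vmn2r4, and DESeq2 at ZT4 also Vmn2r77, both higher in cKOt like Vmn1r32. Vmn2r4, of the V2R family, had 2 and 7 UMIs in Ctrl ZT4, 13 and 10 in Ctrl ZT16, 31 and 28 in cKOt ZT4 and 58 and 56 in cKOt ZT16. Its log2 differences were 2.64 (SE 0.46) at ZT4 and 2.36 (SE 0.38) at ZT16, with adjusted p of 0.0608 and 0.0726 in edgeR. Unlike Vmn1r32, Vmn2r4 was detected in all 4 Ctrl libraries. Vmn2r77, of the same family, had 16 and 11 UMIs in Ctrl ZT4, 34 and 17 in Ctrl ZT16, 41 and 71 in cKOt ZT4 and 67 and 70 in cKOt ZT16. Its log2 differences were 1.92 (SE 0.41) at ZT4 and 1.51 (SE 0.38) at ZT16, with adjusted p of 0.124 and 0.335 in edgeR.

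Of 18 listed genes, 17 were found by symbol (Trpc2 was not), 12 could be tested, and 0 were called by edgeR or DESeq2 at either time. With 0.446% and 0.174% of mRNAs called by edgeR at ZT4 and ZT16, and 2.13% and 1.06% by DESeq2, a count of 0 in 12 is near the background. In edgeR 1 had an unadjusted p under 0.05 at ZT4 and 0 at ZT16, against 8.87% and 6.1% of mRNAs. That gene was Gng8, with 116 UMIs in all, lower in cKOt at ZT4 (log2 difference -1.27, SE 0.43, adjusted p of 0.357 in edgeR). Gnai2, which encodes the G protein subunit of V1R neurons, was at 46.4 and 49.7 CPM in Ctrl ZT4 and 46.2 and 49.2 in cKOt ZT4 (log2 difference -0.01, SE 0.11). Gnao1, its counterpart in V2R neurons, was at 21.4 and 24.3 CPM in Ctrl ZT4 and 30.6 and 19.8 in cKOt ZT4 (0.14, SE 0.25). Omp, the marker of mature olfactory and vomeronasal neurons, had 79 UMIs in all 8 libraries. Rtp1 and Rtp2, which carry olfactory receptors to the cell surface, had 1 UMI each. Other genes of the same list had many more, among them Ebf1 (151623 UMIs), Gnb1 (66490) and Ric8b (28932).

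The mRNAs with the most similar pattern were sought by Pearson's r of log2(CPM + 1) over 160 pairs of a class and a library. The search covered 11910 mRNAs, with a floor of 5 CPM. Vmn1r19, at a mean of 2.67 CPM, was below that floor and could not be listed for the other members. Its own r was 0.78 with Vmn1r18 and 0.73 with Vmn1r20. These points share libraries and classes and are not independent, so r is only a description. For Vmn1r18 they were Vmn1r20 (0.73), Slc27a2 (0.72), Slc7a13 (0.70), Ghr (0.69) and Cntnap5a (0.67). Slc27a2 and Slc7a13 are among the markers that defined PST. For Vmn1r19 they were Vmn1r18 (0.78), Slc27a2 (0.76), Slc7a13 (0.74), Vmn1r20 (0.73) and Cntnap5a (0.71), and for Vmn1r20 they were Vmn1r18 (0.73), Slc27a2 (0.68), Cntnap5a (0.65), Slc7a13 (0.64) and Ghr (0.63). Vmn1r32 had a separate set, Npas2 (0.67), Arntl (0.56), Col6a6 (0.54), Cry1 (0.53) and Hao2 (0.53), and its r with the other 3 receptor genes lay between -0.12 and -0.08. All Ctrl points of Vmn1r32 were at or near 0, so its r also carries the difference between genotypes. Genes that differ between genotypes can rank high for that reason alone, and nothing further is read from this set.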

How the data were processed

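Nuclei were sorted from frozen kidneys and sequenced with 10x 3′ v3.1 chemistry, 1 mouse per library. The authors deposited raw UMI counts per gene and barcode, made with Cell Ranger 7.1.0 per the labels, without normalization. Reference builds are named differently in the sources (mm10 in the methods, GRCm39 in the labels), so coordinates are RefSeq's on GRCm38.p6, and GENCODE on GRCm39 gave only identifiers, gene order and gaps. Barcodes were dropped below 500 genes or 800 UMIs, or above 2% of mitochondrial counts. Scrublet marked 5.37% as doublets, which were kept.

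Nuclei were clustered on 2000 variable mRNAs without Vmn1r and Vmn2r genes (1000 principal components, 20 neighbours, resolution 2.2, Seurat 5.3.0), and clusters were named from fixed markers by a rule set after the clusters were seen. UMI sums per library, or per class with at least 10 nuclei in every library, were tested for mRNAs by the quasi-likelihood test of edgeR 4.0.16 (TMM, at least 5 counts in both replicates of 1 group, 4 groups in 1 model, Benjamini-Hochberg, limit 0.05). LncRNAs were fitted apart, a choice made after seeing the data. DESeq2 1.42.0, other scalings and filters, a replicate block, 50 principal components, thinning, doublet removal and leaving out each library were alternatives. On counts simulated for the Ctrl time comparison (16167 genes), edgeR recovered 64.9% of 2-fold and 98.0% of 4-fold changes, and 7.51% of its calls and 12.8% of DESeq2's were false. The simulation gave all genes 1 common spread between libraries, so these shares do not measure recovery or false calls in the real libraries.

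The members and gene lists were chosen with earlier results of these data known. Genes named in the text are the members, called genes of the neighbour, family and signalling lists, the nearest neighbours, the 5 family genes with the most UMIs and the 5 mRNAs most like each member. Vmn2r4, Vmn2r77, Gnao1, Omp, Rtp1, Rtp2, Ebf1, Gnb1, Ric8b, Gng8 and Vmn1r34 to Vmn1r39 were also named, after their values were seen. The values of 1 neighbouring gene are not reported here, though it is in the counts of its list. Intervals and floors cover counting error only.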

Additional observations from a re-analysis of the deposited data

How the results depend on the processing

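Of the results that answer a comparison, 200 alternative values kept their side of the threshold or stayed within the spread of replicates, 22 were weaker, 7 stronger and 6 moved, and no count of calls or genotype difference among them reversed. The difference of the genotype differences between times, not counted above, changed sign from 0.06 to -0.27 and -0.34 for Vmn1r19 and from 0.17 to -0.02 and -0.09 for Vmn1r20, without the second Ctrl ZT4 and the first Ctrl ZT16 library in that order. Of the alternative values of single genes and classes, 47 stayed within the spread and 31 moved. Calls of members between times are counts only, since the same libraries entered their choice. Members called between times in Ctrl numbered 1 in edgeR, which called 0.142% of the 16165 mRNAs. They numbered 2 in DESeq2, which called 234 of these mRNAs, and 0 with the replicate block. In cKOt, DESeq2 called 1 member, where it called 168 of the 16069 mRNAs. Of the genomic neighbours at ZT4, 2 were called, against 0 with the replicate block and 0 to 1 without a library. Of the other receptor genes, 1 was called at ZT4, against 3 in DESeq2, 2 with no filter on low counts and 0 to 1 without a library, and at ZT16 DESeq2 and the fit with no filter called 1 each. By class in Ctrl, edgeR called 2 of 15 pairs, where it called 0.356% of all pairs of a class and an mRNA. It called 0 with the replicate block and 0 with 50 principal components. DESeq2 called 4 pairs, but its share over all pairs in Ctrl is not given, so nothing is read from that count. The log2 difference of Vmn1r19 between genotypes ranged from -1.45 to -0.86 at ZT4 and from -1.53 to -0.60 at ZT16 without a library, and that of Vmn1r20 from -1.19 to -0.63 at ZT16. Mean Vmn1r32 in cKOt at ZT4 was 11.5 CPM, against 9.90 in PCT and PST nuclei only and 9.32 with all genes fitted together, where the ZT16 value was 6.99 CPM against 8.65; a larger total of UMIs in the denominator is part of that last alternative. Otherwise the cause was not tested.

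The labels do not say that replicate numbers pair the mice. Over 16165 genes, deviations of same-numbered libraries correlated at 0.42 between genotypes at ZT4 and also at ZT16, at 0.20 between times in cKOt and -0.23 in Ctrl, and at -0.03 and -0.26 in the other pairs of groups, so not every pair was above 0.1. With the replicate block Vmn1r18 was no longer called by edgeR between times in Ctrl, a comparison whose libraries also entered its choice. The block was a single effect of the replicate number over all groups, so it does not model a pairing of genotypes within each time. With 2 libraries per group, small differences are not detectable.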
